A study of Mus musculus with 20 samples.

Results

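The TSC22 domain family of the mouse has 4 genes, Tsc22d1, Tsc22d2, Tsc22d3 and Tsc22d4, and it was followed here in hippocampal RNA of mice that did or did not receive a glucocorticoid. The members are all genes of the family by gene symbol, and are 4 of the 57126 genes counted. The family itself was chosen with earlier results of these data known. All 4 passed the filter on low counts, which 18648 genes passed. Tsc22d3 encodes GILZ, the glucocorticoid-induced leucine zipper protein, and is among the best known direct targets of the glucocorticoid receptor.

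The study crossed genotype with treatment in male C57BL/6 mice, with 5 libraries in each of 4 groups. Every mouse, controls included, had its adrenal glands removed at about 2.5 months of age, so none had its main source of glucocorticoid, and treatment came 2 weeks later. Wild-type mice carry an unmodified Nr3c1, the glucocorticoid receptor gene. In homozygous GRA knockin mice, exon 2 of Nr3c1 carries changed start codons for the 7 shorter translational forms, so that the full-length receptor GRA is the form left. Mice of both genotypes were injected intraperitoneally with PBS, the vehicle, or with the synthetic glucocorticoid dexamethasone (Dex) at 1 mg per kg, and the hippocampus was taken 6 h later. Libraries held from 11493014 to 48267708 read pairs assigned to genes. The knockin allele is present in all tissues and the injection reaches the whole animal, so neither limits the receptor change or the hormone to the hippocampus.

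TSC22 proteins carry near their end a conserved TSC box followed by a leucine zipper, through which they form dimers with themselves and with each other. GILZ is known for holding back inflammatory signalling, binding the NF-kappaB subunit p65, AP-1 proteins and members of the Ras and Raf pathway. Tsc22d1 encodes TSC-22, first described as a transcript induced by TGF-beta, Tsc22d4 is known for a part in insulin and lipid metabolism of the liver, and Tsc22d2 is the least studied member. Proteins of the family also associate with the pseudokinase NRBP1 and with WNK kinases, which control chloride cotransporters and cell volume.

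The coding stretch most alike between the 4 genes, that of the TSC box and zipper, shows how far their reads can be told apart. Each in-frame window of Tsc22d3 was set against the most identical window of each other gene. The set with the highest summed identity was kept, so the identities below are the highest that this search found. Each sequence below is 150 coding bases from GENCODE M21 transcripts, 5′ to 3′, and capitals mark the 87 bases that are identical in all 4 genes.
Tsc22d1: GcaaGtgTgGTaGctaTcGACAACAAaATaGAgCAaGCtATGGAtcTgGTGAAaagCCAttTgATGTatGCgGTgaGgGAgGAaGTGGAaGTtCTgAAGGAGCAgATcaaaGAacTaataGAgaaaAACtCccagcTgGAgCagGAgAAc
Tsc22d2: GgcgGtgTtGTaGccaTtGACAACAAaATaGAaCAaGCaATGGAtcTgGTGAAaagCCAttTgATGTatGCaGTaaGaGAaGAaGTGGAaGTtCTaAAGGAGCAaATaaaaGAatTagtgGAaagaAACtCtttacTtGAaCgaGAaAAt
Tsc22d3: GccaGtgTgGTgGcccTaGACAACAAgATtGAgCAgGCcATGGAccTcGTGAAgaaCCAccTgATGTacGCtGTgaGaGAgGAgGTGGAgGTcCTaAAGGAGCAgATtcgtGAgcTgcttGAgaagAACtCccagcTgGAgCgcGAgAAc
Tsc22d4: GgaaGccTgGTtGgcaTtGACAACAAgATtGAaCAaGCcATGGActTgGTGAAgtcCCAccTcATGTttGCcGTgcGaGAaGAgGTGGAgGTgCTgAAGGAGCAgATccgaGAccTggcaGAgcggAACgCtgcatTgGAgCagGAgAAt
The stretch sits near the end of each coding sequence, at bases 325 to 474 of 606 in the longest Tsc22d3 form and at bases 2935 to 3084 of 3234 in the longest Tsc22d1 form. Tsc22d1 and Tsc22d2 are the closest pair, with 80% of bases identical, and Tsc22d2 and Tsc22d4 the most distant, with 68.7%. Tsc22d3 is 78% identical to Tsc22d1, 74% to Tsc22d4 and 69.3% to Tsc22d2. Over whole transcripts the longest run of bases that any pair shares is 32, in Tsc22d1 and Tsc22d2, which is shorter than the 75-base reads. The longest run that Tsc22d3 shares with another member is 16 bases.

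The genes lie on different chromosomes (mm39, as in the count files). Tsc22d3 (ENSMUSG00000031431.14) is on the minus strand of chromosome X, from 139440277 to 139501408, with 2771 bases of exon. Tsc22d1 (ENSMUSG00000022010.20) is on chromosome 14, from 76652401 to 76745205 on the plus strand, with 6995 bases of exon. Tsc22d2 (ENSMUSG00000027806.10) is on chromosome 3, from 58322136 to 58374204 on the plus strand, with 9799 bases of exon, and Tsc22d4 (ENSMUSG00000029723.17) on chromosome 5, from 137743992 to 137766712 on the plus strand, with 5736 bases of exon. Of the Tsc22d4 exon bases, 72 (1.26%) are shared with another gene on the same strand, and the exons of the other 3 members overlap no gene. All 4 have several transcript forms, from 4 for Tsc22d2 to 16 for Tsc22d1 in GENCODE M21, and a count per gene does not tell them apart.

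RefSeq (GRCm38.p6) lists 3 start sites for Tsc22d3 and 5 for Tsc22d1, the members in the promoter table. The windows shown are 250 bases long, end at the base before a start site, and hold, where in capitals, a half-site of the glucocorticoid response element (TGTTCT, or AGAACA on the other strand). Tsc22d3 and Tsc22d1 both rose with Dex, as given below. Tsc22d4 rose as well, but the promoter table holds no window for it. The first window shown is that of the most upstream start of Tsc22d3, chrX:140600523-140600772 on the minus strand.
Tsc22d3 window 1: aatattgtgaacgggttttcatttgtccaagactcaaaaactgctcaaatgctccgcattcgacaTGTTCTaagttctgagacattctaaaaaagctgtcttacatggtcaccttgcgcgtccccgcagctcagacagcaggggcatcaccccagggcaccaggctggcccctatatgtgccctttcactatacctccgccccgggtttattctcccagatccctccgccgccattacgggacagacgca
The most downstream Tsc22d3 start, chrX:140542669-140542918 on the minus strand, has no half-site in its window.
Tsc22d3 window 3: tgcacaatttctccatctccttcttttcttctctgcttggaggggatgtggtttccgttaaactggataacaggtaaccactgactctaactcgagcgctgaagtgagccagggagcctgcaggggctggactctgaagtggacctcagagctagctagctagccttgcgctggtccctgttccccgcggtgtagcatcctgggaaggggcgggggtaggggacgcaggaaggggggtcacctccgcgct
The fourth start of Tsc22d1, chr14:76503976-76504225 on the plus strand, has 1 half-site.
Tsc22d1 window 4: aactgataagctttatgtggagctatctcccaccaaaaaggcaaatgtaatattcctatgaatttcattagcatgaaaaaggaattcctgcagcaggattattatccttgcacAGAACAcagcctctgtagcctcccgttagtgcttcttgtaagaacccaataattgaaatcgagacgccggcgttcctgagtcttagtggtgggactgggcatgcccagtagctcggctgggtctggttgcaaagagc
The half-site lies 185 bases upstream of the Tsc22d3 start and 137 bases upstream of the Tsc22d1 start. No other window of the 8 holds a half-site. Both strands were searched, and 16.1% of all 32807 promoter windows of this length hold the same 6 letters. The full palindrome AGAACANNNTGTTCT (0.00914% of windows) and its shorter form GNACANNNTGTNC (0.387% of windows), which contain a half-site or part of one, were in none of the 8 windows. FOXO letters (GTAAACA, 3.16% of windows) and the cAMP response element (TGACGTCA, 1.55% of windows) were in none either, and an E-box (CACGTG, 6.02% of windows) was in 1 window of Tsc22d1. These matches describe letters within 250 bases and not binding.

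Across the 20 libraries Tsc22d1 was the most abundant member without hormone and Tsc22d3 the member that changed most with it. Levels are given as CPM, counts scaled to library size with edgeR's TMM factors, and between genes as CPM per kilobase of exon. Per kilobase, wild-type PBS libraries held 46.8 ± 1.29 CPM of Tsc22d1, 14.8 ± 1.63 of Tsc22d3, 10.6 ± 0.647 of Tsc22d4 and 4.57 ± 0.220 of Tsc22d2 (mean ± SD, n = 5). In knockin PBS libraries the per-kilobase levels were 47.0 ± 0.950, 15.5 ± 2.10, 10.6 ± 1.21 and 4.54 ± 0.162 CPM in the same gene order. Tsc22d3 thus stood at the 76.7th percentile of all genes tested by mean level per kilobase in wild-type PBS, and at the 93.5th in wild-type Dex libraries. In knockin libraries it went from the 77.6th to the 94.6th percentile.

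**Figure D1:**
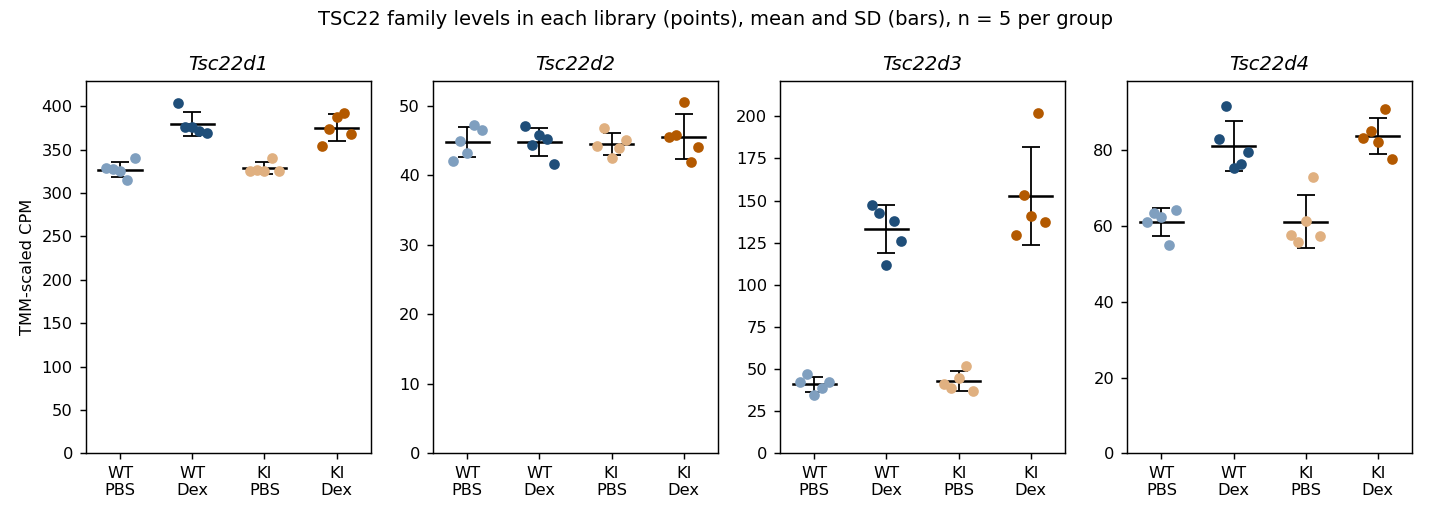
TMM-scaled CPM of the 4 TSC22 genes in each library (points, replicates 1 to 5 from left to right), with mean and SD of each group (black bars), in wild-type (WT) and GRA knockin (KI) mice given PBS or Dex. Axes start at 0 and differ between genes; all 10 Dex libraries lie above all 10 PBS libraries for Tsc22d1, Tsc22d3 and Tsc22d4, and the groups overlap for Tsc22d2.

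Dexamethasone raised 3 of the 4 members in wild-type mice and the same 3 in knockin mice, and no member fell. Of all genes tested, edgeR's quasi-likelihood test with Benjamini-Hochberg adjustment called 9.21% in wild-type (5.27% higher and 3.94% lower) and 10.0% in knockin mice (5.28% higher and 4.71% lower) at adjusted p below 0.05. The members that rose were Tsc22d3, Tsc22d4 and Tsc22d1. For each of them every Dex library lay above every PBS library, over both genotypes, which held for 2.19% of all genes tested (4.54% within wild-type and 4.65% within knockin mice).

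Tsc22d3, the GILZ gene, rose 3.24-fold in wild-type and 3.54-fold in knockin mice. Its level in wild-type PBS replicates 1 to 5 was 42.5, 46.8, 34.8, 38.5 and 42.2 CPM, and in wild-type Dex replicates 147, 143, 112, 138 and 126 CPM. In knockin PBS replicates it was 41.2, 39.1, 44.8, 51.9 and 37.1 CPM, and in knockin Dex replicates 129, 153, 141, 202 and 137 CPM. The Dex and PBS libraries did not overlap: the lowest Dex library held 112 CPM (wild-type replicate 3) and the highest PBS library 51.9 CPM (knockin replicate 4). Group means were 41.0 ± 4.53 CPM in wild-type PBS, 133 ± 14.4 in wild-type Dex, 42.8 ± 5.83 in knockin PBS and 153 ± 29.0 in knockin Dex libraries (SD, n = 5). The log2 fold change was 1.70 in wild-type (SE 0.128, 95% interval 1.43 to 1.97, edgeR adjusted p = 9.25e-08) and 1.82 in knockin mice (SE 0.128, interval 1.56 to 2.09, edgeR adjusted p = 2.58e-08). By size of the rise Tsc22d3 ranked 63rd of the 18648 genes tested in wild-type and 58th in knockin mice. In whole hippocampus, fewer cells of a type and less RNA per cell cannot be told apart, and this holds for every level given here.

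Some cell type markers moved with the treatment. The 5 microglial markers summed in wild-type libraries to 345 to 404 CPM under PBS and 303 to 334 CPM under Dex, and in knockin libraries to 334 to 385 and 296 to 320 CPM. Within that list Cx3cr1 (-0.62 in wild-type, -0.73 in knockin) and P2ry12 (-0.66 and -0.62) fell, while Tmem119 and Csf1r did not pass the test. Among the 5 oligodendrocyte markers Opalin, a myelin membrane protein gene, fell (-1.23 and -1.18, edgeR adjusted p = 6.04e-08 and 4.83e-08), and Mbp, Mog and Mag did not pass. The oligodendrocyte sum was 3.28e+03 CPM in wild-type Dex replicate 3, against 4.64e+03 to 4.8e+03 CPM in the rest of its group, and this was the lowest Dex library for Tsc22d3 and Tsc22d4. Without it the wild-type response was 1.75 for Tsc22d3 and 0.43 for Tsc22d4 (edgeR adjusted p = 9.57e-08 and 0.000141). Of the 4 endothelial markers Ly6c1 rose in both genotypes (0.53 and 0.62), and Flt1 fell in knockin mice (-0.19, edgeR adjusted p = 0.0411). In wild-type mice Flt1 was at -0.13 and did not pass (0.224). Cldn5 and Pecam1 did not pass in either genotype, and the endothelial sums overlapped between treatments. The 5 mural and meningeal markers summed in wild-type libraries to 258 to 295 CPM under PBS and 218 to 272 CPM under Dex. In knockin libraries they summed to 216 to 275 and 217 to 248 CPM. Among them Pdgfrb fell in knockin mice (-0.22, edgeR adjusted p = 0.0326) and did not pass in wild-type mice (-0.20, 0.0681), and the others did not pass. The 3 oligodendrocyte precursor markers summed to 97.1 to 120 CPM under PBS and 117 to 130 CPM under Dex over both genotypes. The 5 neutrophil markers summed to 6.66 to 13.1 CPM under PBS and 4.01 to 6.24 CPM under Dex. Among these 5, only Csf3r was called, lower in both genotypes (-0.48 and -0.65, edgeR adjusted p = 0.0187 and 0.000919). S100a9 did not pass the test, and S100a8, Ly6g and Mpo did not pass the filter on low counts. The 5 astrocyte markers summed to 1.76e+03 to 1.84e+03 CPM in wild-type PBS and to 1.65e+03 to 1.73e+03 CPM in wild-type Dex libraries and overlapped between treatments in knockin mice, with Aqp4 lower (-0.40 and -0.42) and Aldh1l1 higher (0.54 and 0.58 in wild-type and knockin mice). The 9 neuronal markers summed to between 1.06e+04 and 1.22e+04 CPM in every library, with none called, and all 6 T and B cell markers together to at most 1.02 CPM. Choroid plexus markers were high in wild-type PBS replicate 4 (1.77e+03 CPM summed) and knockin Dex replicate 2 (1.38e+03 CPM), against at most 595 CPM in the other libraries, and liver markers summed to 204 and 125 CPM in wild-type PBS replicates 1 and 2, against at most 49.3 CPM in the other libraries. The part of these cell types in the TSC22 changes was not tested.

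Tsc22d4 was the second member to rise, 1.32-fold in wild-type and 1.37-fold in knockin mice. Wild-type PBS replicates 1 to 5 held 60.9, 63.3, 62.2, 54.8 and 64.2 CPM, and wild-type Dex replicates 82.8, 91.6, 75.1, 76.3 and 79.5 CPM. Knockin PBS replicates held 57.6, 55.8, 61.4, 72.9 and 57.4 CPM, and knockin Dex replicates 83.2, 84.9, 82.1, 90.7 and 77.7 CPM. The gap between treatments was narrow: the highest PBS library was knockin replicate 4, at 72.9 CPM, and the lowest Dex library wild-type replicate 3, at 75.1 CPM. Means went from 61.1 ± 3.71 to 81.1 ± 6.59 CPM in wild-type and from 61.0 ± 6.96 to 83.7 ± 4.74 CPM in knockin mice (SD, n = 5). The log2 fold change was 0.40 in wild-type (SE 0.0658, interval 0.27 to 0.54, edgeR adjusted p = 0.000181) and 0.45 in knockin mice (SE 0.0656, interval 0.32 to 0.59, edgeR adjusted p = 3.46e-05).

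Tsc22d1, the gene of TSC-22, rose by 16.0% in wild-type mice, a small change that stood clear of a small spread. Wild-type PBS replicates 1 to 5 held 328, 328, 325, 314 and 339.8 CPM, and wild-type Dex replicates 404, 376, 376, 371 and 369 CPM. Knockin PBS replicates held 326, 326, 325, 340.5 and 326 CPM, and knockin Dex replicates 354, 374, 388, 392 and 368 CPM. All Dex libraries, from 354 CPM upward, lay above all PBS libraries, which reached 340.5 CPM, and wild-type Dex replicate 1 was the highest of the 20. Means went from 327 ± 9.04 to 379 ± 14.2 CPM in wild-type and from 329 ± 6.65 to 375 ± 15.5 CPM in knockin mice (SD, n = 5). The log2 fold change was 0.21 in wild-type (SE 0.0338, interval 0.14 to 0.28, edgeR adjusted p = 6.28e-05) and 0.19 in knockin mice (SE 0.0337, interval 0.12 to 0.26, edgeR adjusted p = 0.00023).

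Tsc22d2 was the member for which no change was detected. Wild-type PBS replicates 1 to 5 held 42.1, 45.0, 43.2, 47.2 and 46.5 CPM, and wild-type Dex replicates 47.1, 44.3, 45.8, 45.2 and 41.7 CPM. Knockin PBS replicates held 44.3, 46.9, 42.6, 43.9 and 45.1 CPM, and knockin Dex replicates 45.5, 45.9, 50.6, 41.9 and 44.1 CPM. All 4 groups overlapped, with means of 44.8 ± 2.15 and 44.8 ± 2.03 CPM in wild-type and 44.5 ± 1.59 and 45.6 ± 3.19 CPM in knockin mice (PBS and Dex, SD, n = 5). The log2 fold change was 0.0039 in wild-type (SE 0.0469, edgeR adjusted p = 0.983) and 0.03 in knockin mice (SE 0.0467, edgeR adjusted p = 0.772). The wild-type interval ran from -6.21% to 7.21% and the knockin interval from -0.06 to 0.13 on the log2 scale, so a change within these bounds is not excluded.

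The spread between libraries of a group differed among the members. The biological coefficient of variation, the spread beyond counting error that edgeR estimates for each gene, was 4.51% for Tsc22d1, 4.74% for Tsc22d2, 7.02% for Tsc22d4 and 13.3% for Tsc22d3, against a median of 7.33% over the genes tested. Over both genotypes the mean log2 response was 1.76 for Tsc22d3 (SE 0.0902, edgeR adjusted p = 1.62e-10), 0.43 for Tsc22d4 (adjusted p = 2.91e-07), 0.20 for Tsc22d1 (adjusted p = 3.11e-07) and 0.02 for Tsc22d2 (adjusted p = 0.78), where 18.2% of all genes were called (9.79% higher and 8.41% lower). This mean combines the 2 responses above and is not separate evidence.

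The knockin and wild-type libraries of 1 treatment address whether the shorter receptor forms matter for these genes. No TSC22 gene passed the test between genotypes under either treatment, and edgeR called none of the 18648 genes (0% under PBS and 0% under Dex), with 673 genes under PBS and 828 under Dex at an unadjusted p below 0.05. DESeq2's Wald test called 0 genes as well in each of these comparisons. Under PBS the knockin minus wild-type log2 difference was 0.07 for Tsc22d3 (interval -0.21 to 0.35), 0.0065 for Tsc22d1, -0.0031 for Tsc22d4 and -0.0075 for Tsc22d2 (edgeR adjusted p = 1 for each). The Tsc22d3 value turned to -0.01 without knockin PBS replicate 4, the highest PBS library for this gene. Under Dex the difference was 0.20 for Tsc22d3 (interval -0.05 to 0.45, unadjusted p = 0.114), 0.05 for Tsc22d4, 0.02 for Tsc22d2 and -0.02 for Tsc22d1 (edgeR adjusted p = 1 for each). Without knockin PBS replicate 4 and knockin Dex replicate 4, which were left out after their values were seen, the Dex difference for Tsc22d3 was 0.07.

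The responses themselves were then compared between genotypes with an interaction term. The knockin response minus the wild-type response was 0.13 on the log2 scale for Tsc22d3 (SE 0.178, interval -0.25 to 0.50, unadjusted p = 0.478), 0.05 for Tsc22d4 (interval -0.14 to 0.24), 0.03 for Tsc22d2 (interval -0.11 to 0.17) and -0.02 for Tsc22d1 (interval -0.12 to 0.07). None passed the test (edgeR adjusted p = 1 for each), and of all genes tested edgeR called 0%, with 527 at an unadjusted p below 0.05. Without knockin Dex replicate 4 the difference was 0.0055 for Tsc22d3 and 0.02 for Tsc22d4, and without knockin PBS replicate 4 it was 0.21 and 0.13. The intervals leave room for a genotype difference of the Tsc22d3 response of up to 0.50 log2 units upward or 0.25 downward. For Tsc22d1, with its small spread, they leave room for 0.07 upward or 0.12 downward.

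**Figure D2:**
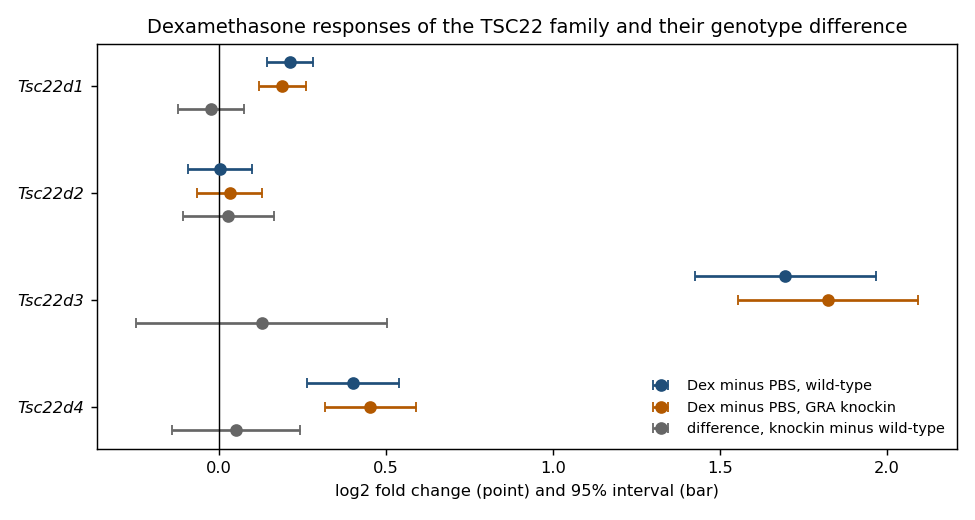
Log2 fold change of Dex against PBS for each TSC22 gene in wild-type (blue) and GRA knockin mice (orange), and the difference between these responses (grey), with 95% intervals from edgeR. The Tsc22d3 responses of 1.70 and 1.82 stand apart from those of the other members, the intervals of Tsc22d2 include 0, and so does the genotype difference of every member.

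The makeup of the family differed between treatments. Summed per kilobase of exon, the 4 genes held 76.8 ± 2.93 CPM under PBS and 121 ± 7.30 CPM under Dex in wild-type libraries, and 77.6 ± 4.08 and 128 ± 12.7 CPM in knockin libraries (SD, n = 5). The sum was between 73.2 and 84.6 CPM per kilobase in the PBS libraries and between 112 and 149 in the Dex libraries. Tsc22d3 made up 19.2% ± 1.59 of the family level in wild-type PBS and 39.6% ± 2.18 in wild-type Dex libraries, and 19.8% ± 1.66 and 42.8% ± 3.62 in knockin libraries. The share of Tsc22d1 went from 60.9% ± 1.28 to 44.9% ± 2.01 in wild-type and from 60.6% ± 1.98 to 42.1% ± 2.67 in knockin mice, although its own level rose. Of the rise of the family level per kilobase, Tsc22d3 made up 75.2% in wild-type and 78.7% in knockin mice. In knockin Dex libraries the mean Tsc22d3 level, 55.1 ± 10.5 CPM per kilobase, was next to that of Tsc22d1, 53.6 ± 2.22, a gap smaller than the spread of Tsc22d3. These levels rest on the length of all exons of a gene, and a shorter main transcript would raise the level per kilobase.

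**Figure D3:**
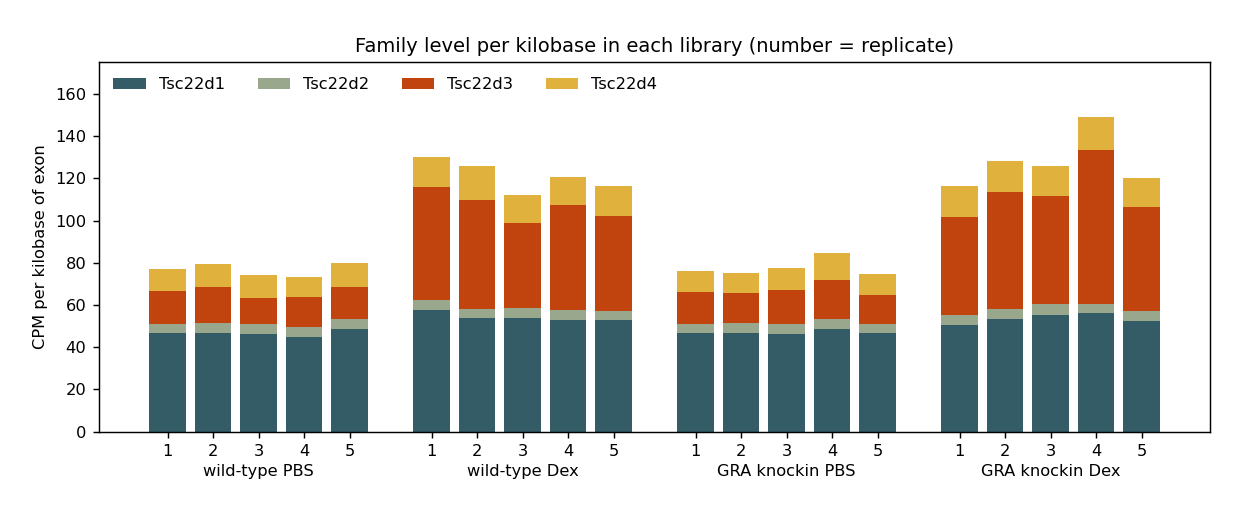
Level of the 4 TSC22 genes per kilobase of exon, stacked, in each of the 20 libraries (number, replicate). The stack is between 73.2 and 84.6 CPM per kilobase in the PBS libraries and between 112 and 149 in the Dex libraries, and most of the gap is the Tsc22d3 segment.

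Within groups, Tsc22d3 and Tsc22d4 varied together from library to library. For each gene the deviation of a library from its group mean of log2 CPM was taken, and the 6 pairs of members were compared over the 20 libraries, with p-values from 100000 permutations within groups. Tsc22d3 and Tsc22d4 gave Pearson's r = 0.698 (permutation p = 0.0013, adjusted over the 6 pairs 0.0078) and Spearman's rho = 0.692 (permutation p = 0.00181, adjusted 0.0109). Of all genes tested, 0.526% had as high an r with Tsc22d3 as Tsc22d4 did. Without the 2 libraries farthest from the median in Tsc22d3, knockin PBS replicate 4 and knockin Dex replicate 4, r was 0.559 (permutation p = 0.0296).

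Tsc22d1 was correlated with both of these genes over all 20 libraries, but not at permutation p below 0.05 once 2 knockin libraries were left out. With Tsc22d3 it gave r = 0.616 (permutation p = 0.0115, adjusted 0.0312) and rho = 0.489 (permutation p = 0.0445, adjusted 0.0889), so the rank correlation did not pass after adjustment. Without the 2 farthest libraries r was 0.477 (permutation p = 0.0345). With Tsc22d4 it gave r = 0.524 (permutation p = 0.0156, adjusted 0.0312), rho = 0.615 (permutation p = 0.0078, adjusted 0.0234) and, without the 2 farthest libraries, r = 0.514 (permutation p = 0.0141). Those 2 were wild-type Dex replicate 1 and knockin Dex replicate 4. Without knockin PBS replicate 4 and knockin Dex replicate 4, a choice made after seeing the data, r was 0.458 with Tsc22d3 (permutation p = 0.0728) and 0.372 with Tsc22d4 (permutation p = 0.172). Both relations were thus weaker and did not pass without these libraries, though r stayed positive. Tsc22d2 was correlated with none of them at permutation p below 0.05, with r = -0.294 to Tsc22d3 (permutation p = 0.295), -0.296 to Tsc22d4 (permutation p = 0.192) and 0.153 to Tsc22d1 (permutation p = 0.613).

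Knockin replicates numbered 4 stood highest of their group for Tsc22d1, Tsc22d3 and Tsc22d4 under both treatments. Knockin Dex replicate 4 deviated from its group mean by 0.42 for Tsc22d3, 0.12 for Tsc22d4 and 0.07 for Tsc22d1, and by -0.12 for Tsc22d2 (log2). Knockin PBS replicate 4 deviated by 0.29, 0.26, 0.05 and -0.02 in the same order. Knockin PBS replicate 4 also had the highest neutrophil marker sum of the 20 libraries, 13.1 CPM, and the lowest microglial sum of its group, 334 CPM. Knockin Dex replicate 4 had the lowest microglial sum of its group, 296 CPM, and a neutrophil sum of 4.50 CPM, within the range of its group. The astrocyte sum was the highest of its group in both libraries, at 1.93e+03 CPM under PBS and 1.81e+03 CPM under Dex. Whether these features have a part in the shared deviations was not tested. Without both libraries the knockin response was 1.78 for Tsc22d3 (edgeR adjusted p = 1.44e-09), 0.50 for Tsc22d4 (7.96e-07) and 0.18 for Tsc22d1 (0.00164), and Tsc22d2 was at 0.05 (0.642).

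**Figure D4:**
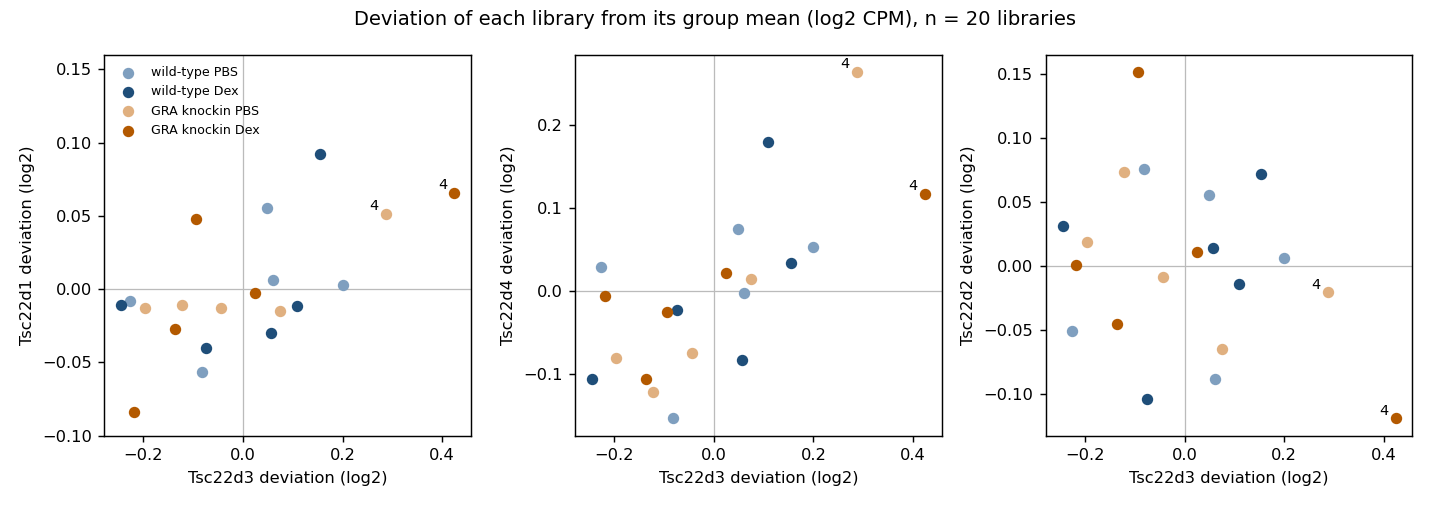
Deviation of each library from its group mean (log2 CPM) for Tsc22d3 on the x axis and Tsc22d1, Tsc22d4 or Tsc22d2 on the y axis, 20 libraries coloured by group, with the knockin replicates 4 marked. Libraries high in Tsc22d3 tend to be high in Tsc22d4 (r = 0.698) and Tsc22d1 (r = 0.616), and no such trend was found for Tsc22d2 (r = -0.294). Without the marked libraries r was 0.559 for Tsc22d4 and 0.458 for Tsc22d1.

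Genes known to act upstream of Tsc22d3 came first among the pathway lists. Nr3c1, which the knockin changes, was at 136 ± 21.8 CPM in wild-type PBS, 98.6 ± 8.27 in wild-type Dex, 163 ± 24.1 in knockin PBS and 111 ± 8.69 in knockin Dex libraries (SD, n = 5). A count over the whole gene cannot show changed start codons, so it does not check the genotype. Of 6 upstream genes, 3 rose and 1 fell in each genotype, with a median log2 change of 0.12 in wild-type and 0.14 in knockin mice, against -0.0005 and 0.0015 over all genes tested. Of all genes, 9.21% and 10.0% were called. Fkbp5, a co-chaperone that lowers the hormone affinity of the receptor and is itself induced by it, rose by 1.61 in wild-type mice and by 1.58 in knockin mice. The forkhead genes Foxo3 (0.30 and 0.19) and Foxo1 (0.16 and 0.24), whose proteins can drive Tsc22d3, rose less, and Nr3c1 fell (-0.46 and -0.55). The mineralocorticoid receptor gene Nr3c2 was at -0.24 and -0.36, which did not pass in either genotype (edgeR adjusted p = 0.382 and 0.133), but passed in the mean response over both (-0.30, edgeR adjusted p = 0.0439). The wild-type call of Foxo1 was lost without wild-type PBS replicate 3 (0.12, edgeR adjusted p = 0.114), PBS replicate 5 (0.0698) or Dex replicate 1 (0.0662). The knockin call of Foxo3 was lost in a fit of the knockin libraries alone (edgeR adjusted p = 0.0712), without knockin PBS replicate 3 (0.0602) or Dex replicate 2 (0.062), and without the choroid-rich libraries wild-type PBS 4 and knockin Dex 2 (0.0762).

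Most genes of the proteins that GILZ is known to bind or restrain did not pass the test in either genotype. Of 23 such genes and close relatives, 5 rose and 1 fell in wild-type mice, and 5 rose and 2 fell in knockin mice, with medians of -0.02 and 0.0017 on the log2 scale, near those of all genes, of which 9.21% and 10.0% were called. In the mean response over both genotypes 6 of the 23 rose and 3 fell, where 18.2% of all genes were called. Sgk1, a kinase gene induced by glucocorticoids whose product GILZ assists in sodium channel control, went from 50.9 ± 2.01 to 142 ± 25.4 CPM in wild-type and from 51.2 ± 4.10 to 143 ± 20.0 CPM in knockin mice (SD, n = 5; log2 1.47 and 1.48). Nfkbia, the gene of the NF-kappaB inhibitor I-kappa-B alpha, went from 14.4 ± 1.21 to 29.5 ± 6.38 CPM in wild-type and from 14.2 ± 1.60 to 29.1 ± 2.82 CPM in knockin mice (log2 1.04 and 1.02). The ubiquitin ligase gene Nedd4l rose by 0.36 and 0.37, and Foxo1 and Foxo3 are counted here as well. Spi1, the gene of the myeloid factor PU.1, fell by 0.58 in wild-type and by 0.81 in knockin mice, its group means lying between 2.05 and 3.68 CPM. It fell along with the microglial markers Cx3cr1 and P2ry12 given above, and their part in it was not tested. The wild-type call of Spi1 was lost without any 1 of wild-type PBS replicates 3, 4 and 5 and Dex replicates 2 and 4 (edgeR adjusted p from 0.063 to 0.0975), and without the choroid-rich libraries (0.065).

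Apart from Nfkbia, the NF-kappaB, AP-1 and Ras pathway genes of this list did not pass the test in wild-type mice, and Rela alone of them passed in knockin mice. Rela, the gene of p65, was at -0.02 in wild-type (edgeR adjusted p = 0.919) and -0.18 in knockin mice (0.0422), and the knockin call, named here after its value was seen, was lost under 12 of 30 alternatives, leaving out any 1 of 8 knockin libraries among them, with adjusted p up to 0.112. The AP-1 genes Fos (-0.23 and -0.15), Fosb (-0.11 and -0.19), Jun (-0.07 and -0.03) and Junb (-0.06 and 0.02) did not pass in either genotype, nor did Nfkb1 (-0.08 and -0.10), Nfkb2 (-0.07 and -0.37, edgeR adjusted p = 0.863 and 0.125), Hras, Nras, Map2k1 or Mapk3. In the mean response Mapk3, a MAP kinase gene, passed with a small fall (-0.10, edgeR adjusted p = 0.0198), and Mdm2, a ubiquitin ligase gene, with a small rise (0.10, edgeR adjusted p = 0.0393). Trp53, the gene of p53, passed there with a fall as well (-0.14, edgeR adjusted p = 0.027). It did not pass in either genotype (-0.18 and -0.09, edgeR adjusted p = 0.0676 and 0.426). These values are levels of messenger RNA and not of protein or its activity.

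Of 18 genes around NRBP1 and the WNK kinases, 2 rose and none fell in wild-type mice, and 2 rose and 1 fell in knockin mice, against 9.21% and 10.0% of all genes called. The kinase gene Wnk2 went from 117 ± 9.19 to 147 ± 6.12 CPM in wild-type and from 118 ± 4.81 to 146 ± 3.97 CPM in knockin mice (log2 0.33 and 0.30, edgeR adjusted p = 6.09e-06 and 1.53e-05). Klhl2, the gene of an adaptor that marks WNK kinases for degradation, rose by 0.20 in both genotypes (edgeR adjusted p = 0.00153 and 0.00173). The pseudokinase genes whose products bind TSC22 proteins did not pass, with Nrbp1 at 0.01 and -0.0056 and Nrbp2 at -0.17 and -0.07, and Wnk1 was at -0.04 and -0.09. Slc12a7, a potassium chloride cotransporter gene named here after its value was seen, fell by 0.58 in knockin mice (edgeR adjusted p = 0.000172) and was at -0.21 in wild-type mice (0.251). The difference of these responses did not pass (-0.37, unadjusted p = 0.0139, edgeR adjusted p = 1). In the mean response over both genotypes 4 of the 18 rose and 1 fell, where 18.2% of all genes were called. The 1 that fell there was Slc12a7 (-0.39, edgeR adjusted p = 0.000148). Wnk4 (0.455, edgeR adjusted p = 0.0263) and Cab39l (0.22, 0.0355) passed there with a rise, and did not pass in either genotype. The neuronal chloride exporter gene Slc12a5 was at 0.05 and 0.0003 in wild-type and knockin mice. In wild-type libraries the list's median log2 change was 0.03, and in knockin libraries 0.02.

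Of 11 genes of TGF-beta signalling, the pathway in which Tsc22d1 was first described, 1 fell and none rose in each genotype, a share near the 9.21% and 10.0% of all genes called. The ligand gene Tgfb1 fell by 0.36 in wild-type mice, from 6.43 ± 0.391 to 4.95 ± 0.714 CPM (SD, n = 5, edgeR adjusted p = 0.0351). In knockin mice Tgfb1 fell by 0.62, from 6.56 ± 0.673 to 4.22 ± 0.687 CPM (edgeR adjusted p = 0.000219). The wild-type call was lost without any 1 of wild-type PBS replicates 1, 3 and 5 and Dex replicates 2, 4 and 5 (edgeR adjusted p from 0.0549 to 0.103), and without PBS replicates 1 and 2, which held the most liver transcripts (0.0514). The ligand genes Tgfb2 (-0.096 and -0.033) and Tgfb3 (0.13 and 0.26) did not pass in either genotype. In wild-type PBS libraries they were at 62.1 and 8.39 CPM, above Tgfb1. The receptor genes Tgfbr1 (0.0073 and 0.08) and Tgfbr2 (0.06 and -0.01) and the signal carrier genes Smad2, Smad3 and Smad4 did not pass. Neither did Tpt1, which encodes fortilin, a protein that GILZ's relative TSC-22 binds (0.09 and -0.0087). The list's medians were 0.05 and 0.02. No gene of the 4 lists was called between genotypes or for the difference of responses.

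**Figure D5:**
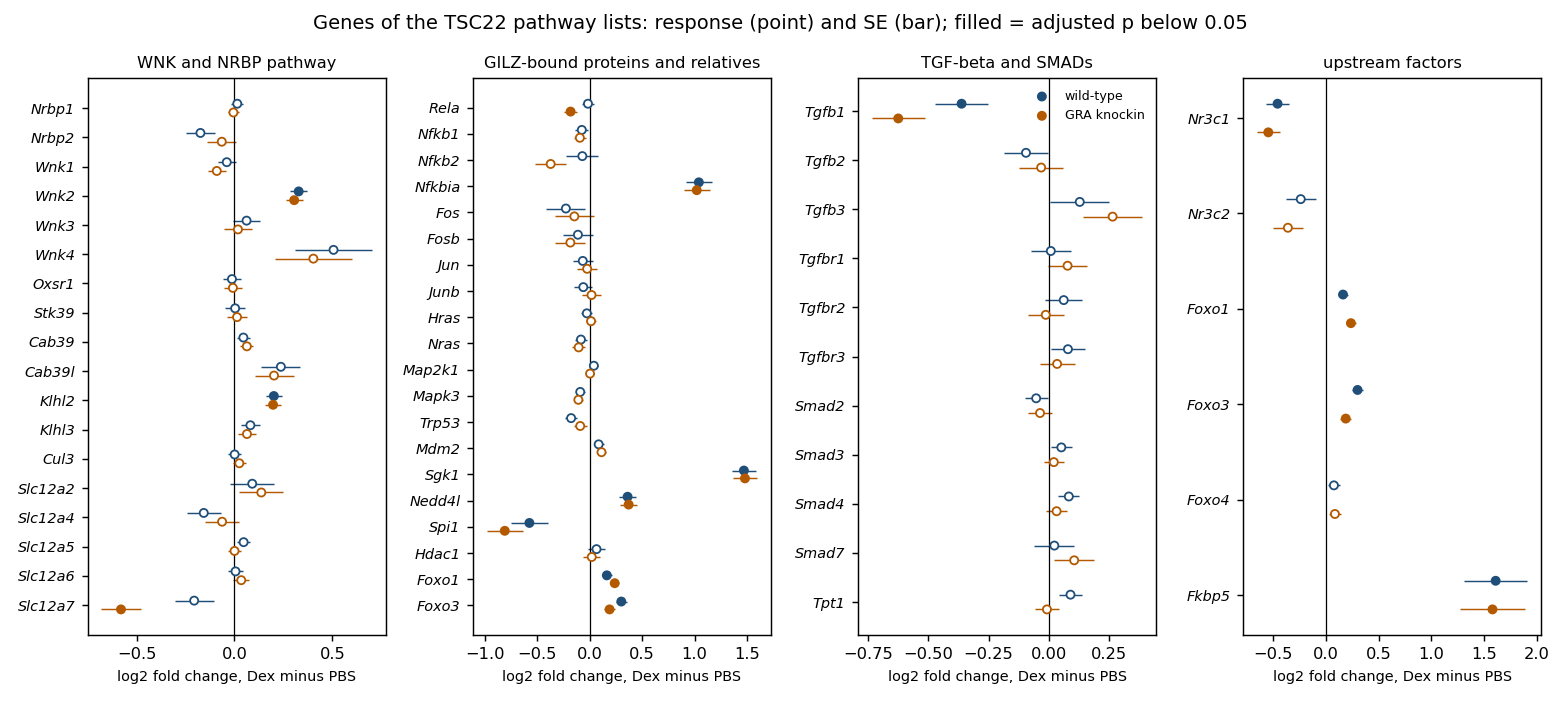
Log2 fold change of Dex against PBS (points) with SE (bars) in wild-type (blue) and GRA knockin mice (orange) for genes of the 4 pathway lists, with filled points where edgeR's adjusted p was below 0.05 and a separate scale in each panel. Sgk1, Nfkbia and Fkbp5 lie at 1.02 to 1.61, and most other genes lie near 0.

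For each member that rose, the genes whose log2 CPM profile over the 20 libraries lay nearest were sought among 12673 genes, by the root mean square difference after each profile was centred on its own mean. Nearest to Tsc22d3, whose own profile had a root mean square deviation of 0.90, were Heph, the gene of the copper-dependent iron oxidase hephaestin, at a difference of 0.16, and Pnpla2, the gene of the triglyceride lipase ATGL, at 0.163. Kirrel2 (0.191), the metallothionein gene Mt2 (0.192), the alpha-arrestin gene Arrdc2 (0.197), Cmtm3 (0.203), Sgk1 (0.231) and Castor1 (0.24), which encodes an arginine sensor of mTORC1, followed. Heph rose by 1.49 in wild-type and 1.64 in knockin mice and Pnpla2 by 1.76 and 1.70, beside 1.70 and 1.82 for Tsc22d3.

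Nearest to Tsc22d4, with a root mean square deviation of 0.24, were Capn2, the gene of calpain-2 (0.0791), and Slc7a5, the gene of the large neutral amino acid transporter LAT1 (0.0795). Emc8 (0.0876), the mitochondrial kinase gene Ak3 (0.0891), the neurotrophic factor receptor gene Cntfr (0.0893), the calcineurin regulator gene Rcan2 (0.0911) and Trp53bp2 (0.097) were among those that followed. Capn2 rose by 0.48 and 0.47 and Slc7a5 by 0.52 and 0.48, beside 0.40 and 0.45 for Tsc22d4. Among the nearest to Tsc22d1, with a deviation of 0.11, were Trim9, the gene of a ubiquitin ligase of neurons (0.0455), Dip2c (0.0481), Anks1b (0.0486), the Mediator subunit gene Med13l (0.0503), Grina (0.053), Klhl2 (0.0545) and Rgl1 (0.0551). All 22 of these genes were called higher in both genotypes, as a profile near that of a member that rose requires. Klhl2 and Sgk1 were thus on a pathway list and among the nearest profiles as well.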

How the data were processed

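Poly(A) RNA of 20 hippocampi was read from both ends over 75 bases, per the labels' protocols. The deposited files hold unnormalized counts of read pairs for each gene, which the authors made with featureCounts 2.0.6 on the GENCODE M34 basic annotation, without strand and without multi-mapping pairs, per the file headers. The submitters' processing notes name STAR 2.5.1, Subread 1.5.1, DESeq2 1.38.3 and mm39, and the headers give another Subread version. How reads were trimmed and aligned is not given in the sources used here. Without strand, antisense reads cannot be told apart. Symbols came from a names table of an older annotation, and 51884 of 57126 identifiers matched.

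The fit used edgeR 4.0.16 under R 4.3.3. Genes passed filterByExpr (minimum count 10, minimum total 15), libraries were scaled by TMM, and 1 robust quasi-likelihood model with 1 term per group was fitted to all 20 libraries (16 residual degrees of freedom). Benjamini-Hochberg adjustment ran over 18648 genes. Intervals are 95% intervals of the fitted model. The labels call libraries of a group biological replicates; had any come from the same animal, p-values would hold for the spread between these libraries alone. Library pairs of a group differed by a chi-square per gene of 2.51 to 12.6 in all 40 pairs, so none was counted as a duplicate. Depth sets the counting error, which is part of the spread tested. The model was checked on simulated data.

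The members and lists were chosen with earlier results of these data known. Text names the 4 members, list genes called in both genotypes, Nrbp1, Nrbp2 and Wnk1 as partners, Nr3c1, and the 8 nearest profiles of each member that rose (mean log2 CPM of at least 1, prior count 2, gene model names left out). Some genes that this rule or the lists hold are counted but not reported here by name. Other named genes are examples chosen with their values in view. Alternatives were DESeq2 1.42.0 (size factors, Wald test), limma-voom (limma 3.58.1), no filter, 50 counts in 5 libraries, compared groups alone, a replicate block, each library left out, and libraries rich in liver or choroid plexus transcripts left out. Sequences came from GENCODE M21 transcripts and RefSeq GRCm38.p6.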

Additional observations from a re-analysis of the deposited data

Results flagged for a closer look

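In each of the 38 named genes, the lowest and highest library of every group of 5 was compared with its neighbours, 152 groups in all. A library was listed where its gap to the nearest other, divided by the range of the group, was above 0.71, Dixon's critical value, which chance exceeds in about 1 in 20 groups. There were 7 such libraries. Tsc22d1 was at 404 CPM in wild-type Dex replicate 1, where the other 4 libraries were at 369 to 376 CPM, and at 340 CPM in knockin PBS replicate 4, where the others were at 325 to 326 CPM. No library of Tsc22d2, Tsc22d3 or Tsc22d4 passed this limit.

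Knockin PBS replicate 4 was also the highest of its group for Mt2, at 31.4 CPM against 15.3 to 18.1 CPM, and for Capn2, at 75.2 CPM against 62.3 to 65.4 CPM. Mt2 and Capn2 were named for profiles near those of Tsc22d3 and Tsc22d4 over these same libraries. Both members were themselves high in this library, so these 2 values are not separate evidence. Knockin Dex replicate 4 was the lowest of its group for Nr3c1, at 96.1 CPM against 114 to 117 CPM, while it was the highest for Tsc22d3. The others were Foxo1 in knockin Dex replicate 5 (63.8 CPM against 68.5 to 70.4) and Ak3 in wild-type PBS replicate 2 (82.0 CPM against 78.0 to 78.7).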

How the results depend on the processing

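The Dex calls of Tsc22d1, Tsc22d3 and Tsc22d4 kept their direction and their side of the threshold in both genotypes and for the mean response under every alternative run. For Tsc22d3 the wild-type change ran from 1.63 to 1.78 and the knockin change from 1.70 to 1.91 (largest adjusted p 5.81e-05). No member was called in a genotype comparison or for the difference of responses under any alternative.

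Values that turned sign all lay near 0 with adjusted p of at least 0.843. Tsc22d2 in wild-type mice went from 0.0039 to -0.0058 (limma-voom), -0.0048 (no filter), -0.00084 (50 counts in 5 libraries) and -0.0272 (without the liver-rich libraries), and ran from -0.0166 to 0.0277 with 1 library left out. Its mean response was -0.00041 without the liver-rich libraries and -0.00038 to 0.0330 with 1 left out, and its knockin response -0.0052 to 0.0622. Knockin minus wild-type under PBS turned for Tsc22d1 without a filter (-0.0050), without the choroid-rich libraries (-0.0074) and without knockin PBS 4 and Dex 4 (-0.0057, chosen after seeing the data), for Tsc22d2 without the choroid-rich libraries (0.0086), for Tsc22d3 without knockin PBS 4 and Dex 4 (-0.0110), and for Tsc22d4 without the liver-rich libraries (0.0091). With 1 library left out, the PBS difference ran from -0.0070 to 0.0196 (Tsc22d1), -0.0292 to 0.0093 (Tsc22d2), -0.0123 to 0.123 (Tsc22d3) and -0.0791 to 0.0268 (Tsc22d4). The Dex difference ran from -0.0337 to 0.0070 (Tsc22d1) and -0.0171 to 0.0507 (Tsc22d2), and the difference of responses from -0.0400 to 0.00077 (Tsc22d1), -0.0097 to 0.0584 (Tsc22d2), 0.0055 to 0.211 (Tsc22d3) and 0.0213 to 0.128 (Tsc22d4). Fitting the compared groups alone called 1 gene, no member, between genotypes under Dex, where the fit to all libraries called 0. The cause of these shifts was not tested.

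Groups share replicate numbers in the labels, but same-number libraries were little correlated. Of 30 same-number pairs of libraries, 5 had deviations correlated above 0.1 (median 0.0151, range -0.108 to 0.249), against a median of -0.00551 for other pairs. Of 20 libraries, 7 correlated best with their own number. The counts to be had without any pairing were not worked out, so a weak pairing is not excluded. With a replicate block Tsc22d3 was at 1.69 in wild-type and 1.82 in knockin mice, no member's call changed, and 1643 and 1843 genes were called against 1717 and 1864. List counts moved in the block fit for Tgfb1 in wild-type (adjusted p = 0.0516) and Rela in knockin mice (0.0636). Without length scaling the order under PBS changed: Tsc22d3, second per kilobase, was last in CPM, at 41.0 in wild-type and 42.8 in knockin mice, below Tsc22d4 (61.1 and 61.0) and Tsc22d2 (44.8 and 44.5).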
